A study of Mus musculus with 8 samples.

Results

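The genes described here are the 5 perilipins (Plin1, Plin2, Plin3, Plin4 and Plin5), 4 transcription factors of fat cell formation (Pparg, Cebpa, Cebpb and Cebpd) and the triglyceride lipase Pnpla2. They were taken by name: every non-control probe that the array files assign to one of these symbols, which gave 10 probes for 10 genes, of 55681 probes and 24129 named genes in all. Plin4 was selected on its log2 signal in these same arrays, higher in every macroH2A1.1 siRNA sample, so its values are a description with no test, and the others were taken by family and role. RNA was collected on day 4 of differentiation from myotubes of C2C12, an established line of mouse muscle precursor cells. In 4 samples the cells carried a control siRNA, and in the other 4 an siRNA against macroH2A1.1, the form of the histone variant macroH2A1 that binds ADP-ribose and arises by alternative splicing. All 8 samples are of this one cell line, and none is a fat cell culture. One characteristic calls the treated samples a knockout of macroH2A, whereas titles and design name an siRNA, which was followed. The labels call the samples biological replicates with no word on separate cultures, and the p-values cover only the spread among these 8 samples, which may be technical.

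Perilipins are proteins that coat lipid droplets, the stores of neutral lipid that most cells can form. Plin1 is the droplet coat of fat cells, Plin2 and Plin3 are made in most tissues, Plin4 binds small, newly formed droplets through long amphipathic repeats, and Plin5 is made in tissues that burn fatty acids, where it sits between droplets and mitochondria. Pnpla2 (adipose triglyceride lipase) starts the breakdown of the stored triglyceride. In a cell that becomes a fat cell, Cebpb and Cebpd are induced early and Pparg and Cebpa later, and Pparg, a nuclear receptor, binds many genes of lipid storage directly. Muscle also stores triglyceride in droplets and burns it, and members of the PPAR family act there too.

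The probe sequences of the 3 members that the results turn on are shown because every value below is what these oligonucleotides captured. Each is 60 bases long and only its bases 1 to 30 are printed, 5′ to 3′. The Plin4 probe lies at chr17:56240055-56240114 on the minus strand, the Plin2 probe at chr4:86302847-86302906 on the minus strand and the Pparg probe at chr6:115440213-115440272 on the plus strand, all in the build that the files name, mm9. No mm9 gene annotation was used here, so the exon or UTR under each probe is not given.
Plin4 probe: cagcctgtgggtatgagacctgccctgaat
Plin2 probe: ctggccagatgaccccttttgctgtattga
Pparg probe: gcaggaaagtcccacccgctgacaacgtgt
Plin4 and Plin2 each had 1 spot per array, whereas the Pparg probe was printed 10 times on every array.

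The upstream sequences of the same 3 genes are shown because these were the measured members with the largest increases. Each is the 250 bases before a RefSeq start site (build GRCm38.p6, a different build from the probes), read in the direction of transcription. The Plin4 window is chr17:56109783-56110032 on the minus strand, the Plin2 window chr4:86670060-86670309 on the minus strand, and the Pparg window the most downstream of 3 listed for that gene, chr6:115421816-115422065 on the plus strand. Capitals mark matches, on either strand, to 4 motifs: AGGNCA repeated after 1 free base (the direct repeat bound by PPAR with RXR), TTGCNNAA (C/EBP), TATAAA and CAGCTG (an E-box of myogenic factors).
Plin4: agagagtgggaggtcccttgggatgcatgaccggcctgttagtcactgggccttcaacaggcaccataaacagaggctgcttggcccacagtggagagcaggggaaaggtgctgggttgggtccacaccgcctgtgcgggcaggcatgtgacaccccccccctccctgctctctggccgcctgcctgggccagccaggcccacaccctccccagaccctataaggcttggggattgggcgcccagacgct
Plin2: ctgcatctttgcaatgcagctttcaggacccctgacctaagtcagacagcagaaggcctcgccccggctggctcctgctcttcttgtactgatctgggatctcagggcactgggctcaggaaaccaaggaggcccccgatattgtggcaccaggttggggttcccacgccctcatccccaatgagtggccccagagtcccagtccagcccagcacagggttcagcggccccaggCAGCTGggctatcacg
Pparg: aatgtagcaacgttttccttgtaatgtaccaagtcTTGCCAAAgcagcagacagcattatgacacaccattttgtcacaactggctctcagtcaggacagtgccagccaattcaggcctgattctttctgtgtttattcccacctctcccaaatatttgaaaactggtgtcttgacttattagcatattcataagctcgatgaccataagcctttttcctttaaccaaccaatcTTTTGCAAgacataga
The Plin4 window held none of the 4 motifs, and 65.2% of its bases were G or C against a median of 52.4% over 32851 windows of the same length. In the Plin2 window the capitals are a CAGCTG whose first base lies 16 bases before the start site, a motif found in 13% of all windows. The printed Pparg window held 2 C/EBP matches, TTGCCAAA on the printed strand and TTTTGCAA as the reverse complement, at 215 and 16 bases before the start. Of all windows, 9.56% hold at least 1. The other listed Pparg windows held no C/EBP match: that from chr6:115362099 had only a TATAAA match and that from chr6:115360894 none of the 4 motifs. Which Pparg start site these cells use was not tested. The direct repeat bound by PPAR with RXR was in none of the windows that the RefSeq table lists for 9 of the 10 members and in 0.338% of all windows. A match is a run of letters and does not show binding.

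Signals are given as log2 of the processed spot intensity minus the 75th percentile of that array, so a value of 0 is the level of the 75th percentile and a difference of 1 is a factor of 2. Levels of different probes cannot be set against each other on this scale. Of the 10 members, 8 were measured in both groups, and Plin1 and Plin5 were not well above background on any of the 8 arrays. A gene was called when its adjusted p (limma, two-sided, Benjamini-Hochberg over 13824 genes) was under 0.05. Among the 7 measured members other than Plin4, 0 passed without pairing, where 0.0217% of all genes passed, and 1 (Plin2) had an unadjusted p under 0.05, as 12% of all genes had. Samples with the same replicate number deviated together, and the same fit with replicate number as a block called 2 of the 7, Plin2 and Pparg, both higher, against 7.94% of all genes called and 4.07% called higher. With the block, 3 of the 7 had an unadjusted p under 0.05, against 27.8% of all genes.

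**Figure D1:**
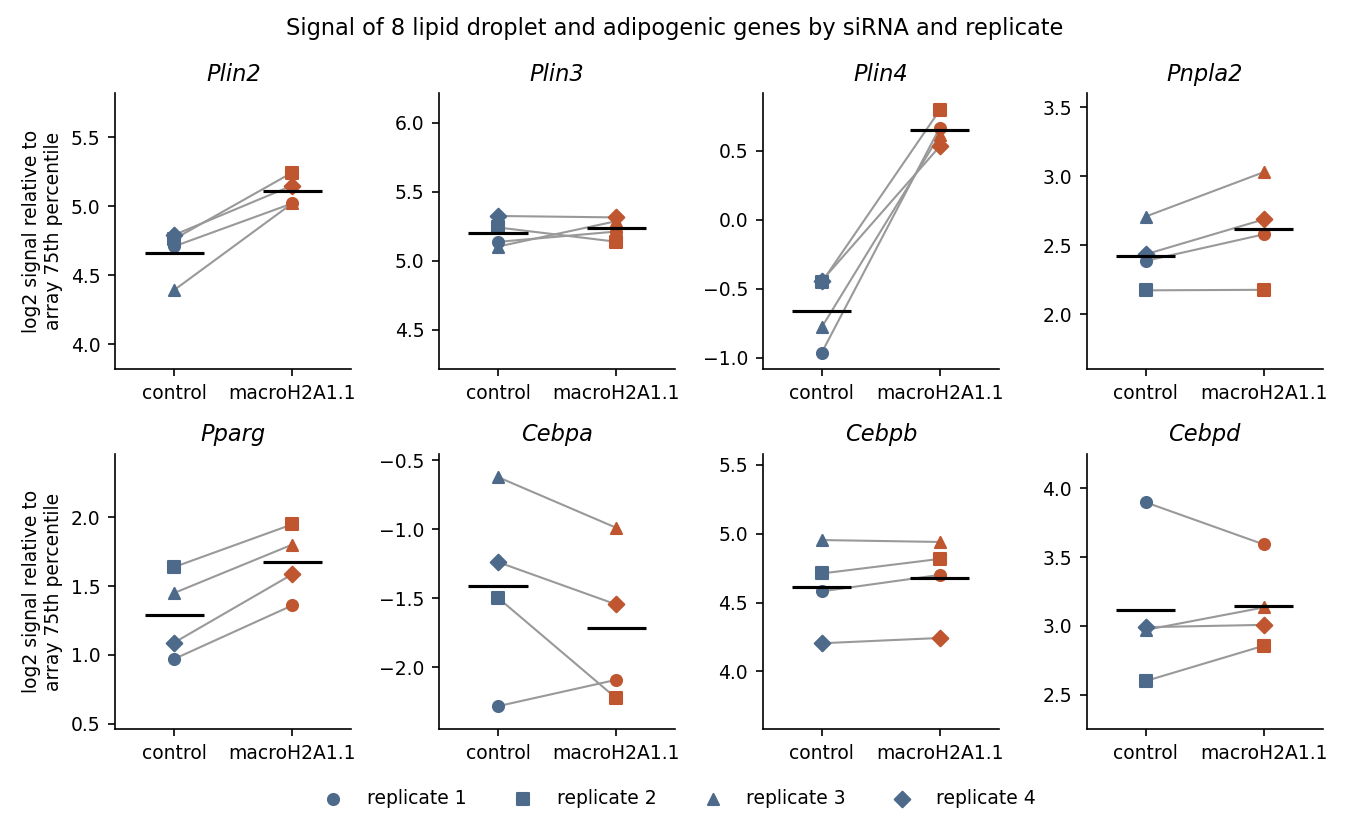
Each panel plots 1 gene: log2 signal after subtracting the array's 75th percentile (vertical axis, of equal span in every panel) in the control siRNA samples (blue) and the macroH2A1.1 siRNA samples (orange), with grey lines joining samples of the same replicate number and black bars at the group means of 4. Plin4 and Plin2 are the panels whose groups do not overlap, and every line rises in the Pparg panel although its groups overlap.

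Plin4 was the member with the largest difference. Its signal in control siRNA replicates 1 to 4 was -0.96, -0.45, -0.78 and -0.44, and in macroH2A1.1 siRNA replicates 1 to 4 it was 0.67, 0.80, 0.62 and 0.53. Every siRNA sample was above every control sample, and the spread was smaller among the siRNA samples (0.65 ± 0.11, SD, n = 4) than among the controls (-0.66 ± 0.26, SD, n = 4). The means differed by 1.31 (2.49-fold), and 111 of 13772 genes measured on all arrays had a larger rise. On the intensity scale, before any scaling, the Plin4 spot read 152 to 229 in the control samples and 391 to 546 with the siRNA. Within replicate pairs the difference was 1.63, 1.25, 1.40 and 0.98. The pairs with the largest rise were those of the lowest controls, replicates 1 and 3, which follows by subtraction from the closely spaced siRNA values.

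Plin2, the droplet coat of most non-fat tissues, was the other perilipin whose groups did not overlap. Its signal was 4.71, 4.76, 4.39 and 4.79 in control replicates 1 to 4 and 5.02, 5.25, 5.02 and 5.15 in macroH2A1.1 siRNA replicates 1 to 4. Control replicate 3 was the lowest sample and siRNA replicate 2 the highest. The means were 4.66 ± 0.18 and 5.11 ± 0.11 (SD, n = 4 each), a difference of 0.45 (1.36-fold, SE 0.11, 95% interval 0.19 to 0.70). Without pairing this did not pass (limma adjusted p = 0.192). With the replicate block Plin2 rose (SE 0.07, limma adjusted p = 0.0328), by 0.31, 0.48, 0.63 and 0.36 in pairs 1 to 4. Over all genes, the groups of 7.95% were apart in this way, and 19.4% were higher in all 4 pairs. The unscaled intensities of Plin2 overlapped, at 5470 to 8750 in control and 8370 to 11900 in siRNA samples, and in pair 1 the siRNA sample had the lower intensity (8367 against 8754). That pair also had the most unequal scaling, with a 75th percentile of 334.58 on the control array and 257.65 on the siRNA array.

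Plin3, a cytosolic perilipin that moves to forming droplets, differed little between the groups. It read 5.14, 5.24, 5.10 and 5.32 in the control samples and 5.21, 5.14, 5.29 and 5.31 in the siRNA samples, so the groups overlapped. The difference was 0.04 (SE 0.09, 95% interval -0.16 to 0.23, limma adjusted p = 0.929). Replicate 3 was higher with the siRNA by 0.18, and in replicate 2 the difference was -0.10.

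Plin1 and Plin5 gave no measurable level. Plin1, a defining gene of fat cells, read -6.86 to -4.76 in the control samples and -6.28 to -4.81 in the siRNA samples, whereas the lowest signal called well above background on these arrays was -4.55 to -4.24. Plin5 read -6.49 to -6.29 in the control samples and -6.40 to -4.48 in the siRNA samples, also not well above background on any array, and no fold is given for either. Plin5 is the direct neighbour of Plin4 in the RefSeq gene order. Of the 5 genes on each side of Plin4, 8 were measured, none passed without pairing, and with the replicate block 1 fell, Tnfaip8l1 (-0.34, limma adjusted p = 0.041). The nearest measured neighbours, Hdgfl2 and Ubxn6, differed by 0.09 and 0.01.

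Pnpla2, whose product cuts the first fatty acid from stored triglyceride, was a little higher in every pair but did not pass either fit. Its signal was 2.39, 2.17, 2.71 and 2.43 in control replicates 1 to 4 and 2.58, 2.18, 3.03 and 2.69 in siRNA replicates 1 to 4. The groups overlapped, and replicate 2 was the lowest and replicate 3 the highest in both. The difference was 0.19 (SE 0.19, limma adjusted p = 0.772, and 0.161 with the replicate block), and in pair 2 it was 0.0038. Without siRNA replicate 3 the difference was 0.06 and without control replicate 2 0.11, and without siRNA replicate 2 it was 0.34.

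Pparg, the nuclear receptor at the centre of fat cell formation, was higher with the siRNA in every pair after scaling. Its signal was 0.97, 1.64, 1.45 and 1.09 in control replicates 1 to 4 and 1.36, 1.95, 1.80 and 1.59 in siRNA replicates 1 to 4. The groups overlapped because the replicates differed from each other more than the siRNA groups did: in both groups replicate 2 was highest, then 3, then 4, then 1. The means were 1.29 ± 0.31 and 1.67 ± 0.26 (SD, n = 4 each), a difference of 0.39 (1.31-fold, SE 0.18, limma adjusted p = 0.455 without pairing). With the replicate block Pparg rose, by 0.39, 0.31, 0.35 and 0.50 in pairs 1 to 4 (SE 0.06, limma adjusted p = 0.0285). Before scaling, the intensities were 656, 916, 711 and 661 in control and 661, 1214, 899 and 810 in siRNA replicates 1 to 4, so pair 1 barely differed and its 0.39 comes with the unequal 75th percentiles given for that pair above. The SD of the 4 scaled differences was 0.080, and 15% of genes had a smaller one. Fitted probe by probe over 24988 probes, where the block called 3.15%, Pparg still passed (limma adjusted p = 0.0471) and Plin2 did not (limma adjusted p = 0.0504).

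The 10 Pparg spots on each array show how closely the probe repeats. Their SD within an array was 0.03 to 0.13, and the widest was control replicate 1, where 1 spot lay below the rest. In each of the 4 pairs every siRNA spot was above every control spot of the same replicate number. The spots share 1 labelled RNA and are no replicates of the siRNA treatment.

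**Figure D2:**
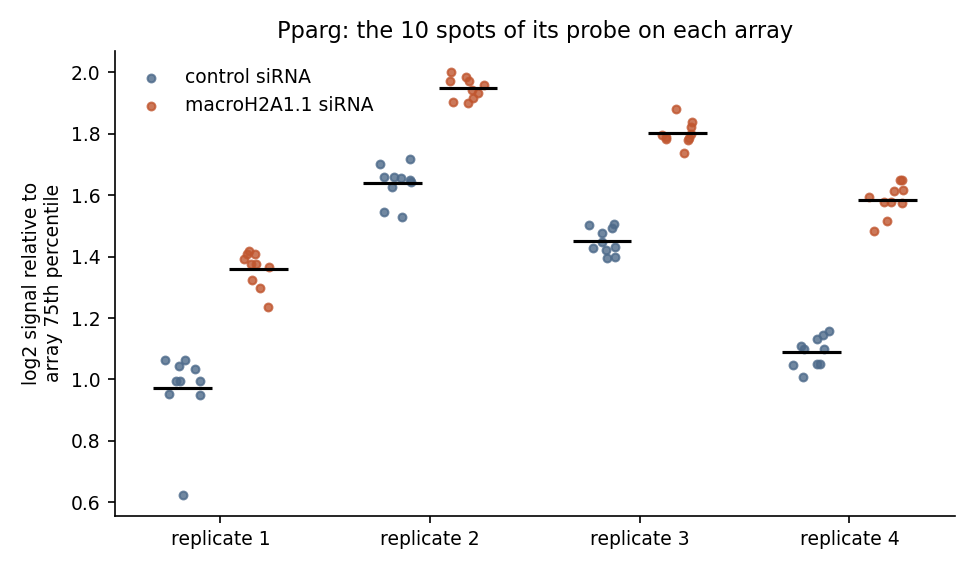
Points are single spots of the Pparg probe, 10 per array, as log2 signal after subtracting the array's 75th percentile (vertical axis), for replicates 1 to 4 (horizontal axis) of control siRNA (blue) and macroH2A1.1 siRNA (orange), with black bars at the array means. The siRNA bar is above the control bar in every replicate, and replicate 2 is highest in both groups.

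The 3 C/EBP factors did not pass in either fit. Cebpa, the factor that maintains the fat cell state with Pparg, read -2.28, -1.50, -0.62 and -1.24 in control samples and -2.09, -2.22, -0.99 and -1.54 in siRNA samples. Its difference was -0.30 (SE 0.38, limma adjusted p = 0.843, and 0.253 with the replicate block), lower in pairs 2, 3 and 4 and higher by 0.19 in pair 1. Without control replicate 3 it was -0.04, without control replicate 1 -0.59, without siRNA replicate 3 -0.54, and without siRNA replicates 1 or 2 -0.18 and -0.13. It was -0.12 after normexp correction and -0.15 in the authors' deposited series values. Its intensities were 60.4 to 169, and its 95% interval of -1.19 to 0.58 was the widest of the 7.

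Cebpb, an early factor of fat cell formation, read 4.58, 4.71, 4.95 and 4.20 in control samples and 4.70, 4.82, 4.94 and 4.24 in siRNA samples. Replicates 3 and 4 were the highest and lowest of both groups, and the siRNA difference was 0.06 (SE 0.20, limma adjusted p = 0.947, and 0.523 with the replicate block). With the block its 95% interval was -0.08 to 0.21. Cebpd, the other early factor, read 3.90, 2.60, 2.97 and 2.99 in control samples and 3.59, 2.86, 3.13 and 3.01 in siRNA samples, with replicate 1 the highest of each group. Its difference of 0.03 (SE 0.28, limma adjusted p = 0.985, and 0.866 with the replicate block) was negative in pair 1 (-0.31) and positive in the other pairs.

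**Figure D3:**
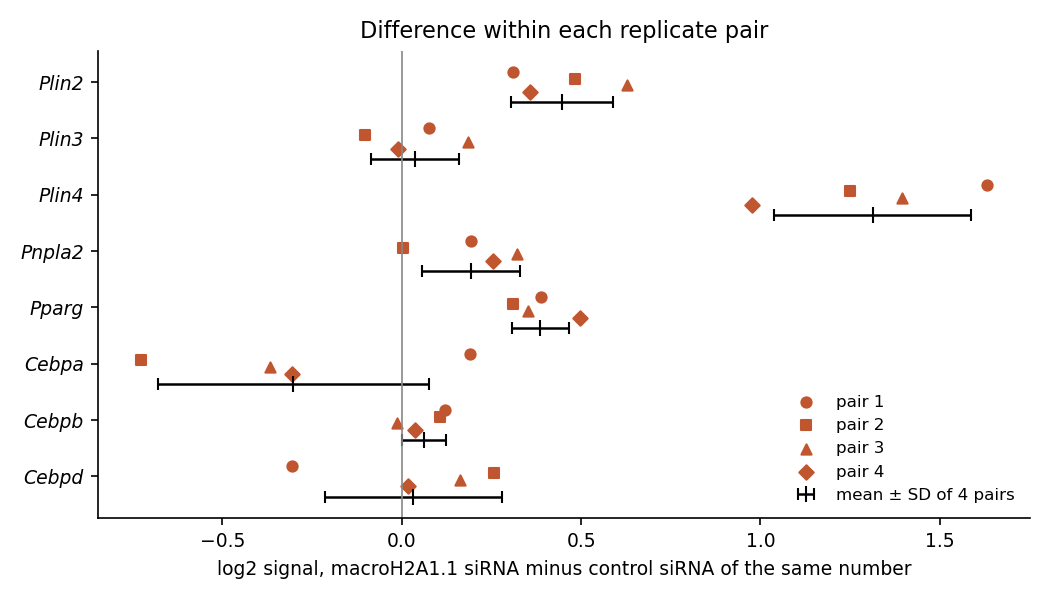
Points are the differences in log2 signal between the macroH2A1.1 siRNA sample and the control siRNA sample of the same replicate number (horizontal axis), 1 symbol per pair, for the 8 measured genes (rows). Black bars are the mean ± SD of the 4 pairs. Plin4, Plin2 and Pparg lie to the right of 0 in every pair and apart from it, while Plin3, Cebpb and Cebpd straddle 0.

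The calls of Plin2 and Pparg rest on all 4 pairs. Leaving out pair 1, 2, 3 or 4 gave limma adjusted p of 0.101, 0.104, 0.112 and 0.0642 for Plin2 and 0.119, 0.0822, 0.108 and 0.0649 for Pparg, so neither passed with 3 pairs. Over all genes 0, 110, 0 and 543 were called without pair 1, 2, 3 or 4, so this loss was not particular to Plin2 and Pparg. Their differences kept their sign and lay between 0.38 and 0.49 for Plin2 and between 0.34 and 0.41 for Pparg under the settings of the paired fit. One library stood apart from the rest on the first principal component (34.8% of variance), macroH2A1.1 siRNA replicate 2, at 60.29 against -27.48 to 8.01. Without that array the difference of Plin4 was 1.27, that of Plin2 0.40 and that of Pparg 0.29, against 1.31, 0.45 and 0.39 with all arrays. All 3 Macroh2a1 probes kept for the fit were lower in every siRNA sample than in any control sample, with mean differences of -0.99, -1.42 and -1.11. Which splice form each of these probes reads is not given, so their fall does not show that macroH2A1.1 alone was lowered. Spots well above background made up 46.9% to 49.8% of 59305 non-control spots per array, and saturation was seen at none. With 4 arrays a group, precision is limited by their number.

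The same question was put to the genes that act with the perilipins and with Pparg, in 5 lists from textbook knowledge that leave out the members. Without pairing no gene of these lists passed (limma, 0 in each list), and the calls given next are those with the replicate block. For comparison, 4.07% of all genes were called higher and 3.87% lower, and the median difference of all genes was -1e-04. At an unadjusted p under 0.05 without pairing, which 12% of all genes had, the lists held 0, 3, 4, 6 and 5 genes in the order given here. These were of 16, 12, 19, 43 and 32 measured genes, with 0, 2, 3, 1 and 5 higher and 0, 1, 1, 5 and 0 lower. Without pair 1 or pair 3 no gene was called in any list, and 0 of all genes were called. Without pair 2, 2 of 14 called genes were left, Egr2 and Fabp4, with 110 of all genes called. Without pair 4, 5 of the 14 were left, with 543 of all genes called. In each case all 14 kept their direction. Fabp4 is among the 14 but is described below without a test, so its call carries no weight here. With no filter on dim probes 0 of the 14 and 0 of all genes passed. Median centring ended the calls of Cav1, Lpin3, Klf6, Nr2f2 and Scd1, with 794 of all genes called.

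Of 16 measured lipid droplet proteins other than perilipins, 0 rose and 1 fell, with a median difference of -0.01. The one that fell was Cav1 (-0.47, limma adjusted p = 0.0495), a coat protein of caveolae that is also found on droplets, and it passed in 3 of 11 other settings of that fit. Bscl2 (seipin), which organises droplet formation, did not pass (-0.47, limma adjusted p = 0.138). It was dim, with siRNA replicates 2 and 3 not well above background, and its difference was -0.0088 after normexp correction and -0.135 in the authors' deposited series values. Of 12 measured lipolysis genes, 0 rose and 1 fell. That gene was G0s2, a small protein that inhibits the lipase encoded by Pnpla2. G0s2 read 3.20, 4.03, 3.20 and 2.86 in control replicates 1 to 4 and 2.41, 3.22, 2.26 and 2.33 in siRNA replicates 1 to 4. It fell by 0.77 (0.587-fold, SE 0.08, limma adjusted p = 0.0159), with pair differences of -0.79, -0.80, -0.94 and -0.54. Lipoprotein lipase, Lpl, which frees fatty acids from circulating triglyceride, was 0.40 higher without passing (limma adjusted p = 0.0945).

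Of 19 measured triglyceride synthesis genes, 1 rose and 1 fell, with a median of 0.04. Both were lipins, the phosphatases that make diacylglycerol: Lpin3 rose by 0.35 (limma adjusted p = 0.0376) and Lpin1 fell by 0.47 (limma adjusted p = 0.0174). Of 43 measured regulators of fat cell formation, 0 rose and 4 fell, with a median of -0.07. The list holds activators and inhibitors of that process alike, so its counts and median give no direction for it. That none rose depended on the setting. After normexp correction 4 rose and 6 fell, in the authors' deposited series values 2 and 6, and with quantile normalization 1 and 4. Of all 13824 genes, 1893, 1721 and 1022 were called in these settings, in that order, against 1098 in the main one. With the filter on all 8 arrays 2 rose and 6 fell, of 41 measured, with 1346 of 13205 genes called in all. At an unadjusted p under 0.05 with the block, 8 of the 43 were higher and 10 lower, against 27.8% of all genes in both directions together. Egr2, an early activator of fat cell formation upstream of Cebpb, read 1.15, 1.83, 0.81 and 0.62 in control replicates 1 to 4 and 0.0049, 0.28, -0.25 and -0.36 in siRNA replicates 1 to 4. It fell by 1.18 (SE 0.11, limma adjusted p = 0.0125). Ebf1, a factor that promotes Pparg and Cebpa expression in fat cell precursors, fell by 0.68 (limma adjusted p = 0.0241). Nr2f2 (-0.35, limma adjusted p = 0.0346), an orphan nuclear receptor, and Klf6 (-0.27, limma adjusted p = 0.0477), a zinc finger factor, also fell. Among the 43 measured regulators, control and siRNA samples did not overlap for Egr2, Ebf1 and Nr2f2, and over all genes they did not overlap for 7.95%.

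Of 32 measured PPAR target genes, 5 were called higher and 1 lower, with a median of 0.10. One of the 5, Fabp4, had entered the fit only through the siRNA samples, where it is high. Of the 30 target genes well above background on all 8 arrays 4 rose and 1 fell, with 1346 of 13205 genes called under that filter. Fabp3, the fatty acid binding protein of heart and skeletal muscle, read 3.71, 2.52, 3.53 and 3.05 in control replicates 1 to 4 and 5.40, 4.69, 5.14 and 4.02 in siRNA replicates 1 to 4. It rose by 1.61 (3.06-fold, SE 0.19, limma adjusted p = 0.0174), its groups did not overlap, and its other probe differed by 1.56. Slc2a4, the insulin-responsive glucose transporter of muscle and fat, rose by 0.85 (limma adjusted p = 0.028), and Acadl, an enzyme of mitochondrial fatty acid oxidation, rose by 0.52 (limma adjusted p = 0.0168). Scd1, a fatty acid desaturase, rose by 0.39 (limma adjusted p = 0.0397), and Txnip, a thioredoxin-binding protein, fell by 0.39 (limma adjusted p = 0.0266).

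Fabp4, the fatty acid binding protein of fat cells and a textbook target of Pparg, gave a very dim signal and is described without a test, for the reason above. It read -4.55, -2.76, -2.97 and -5.22 in control replicates 1 to 4, of which only replicates 2 and 3 were well above background. In siRNA replicates 1 to 4 it read -3.14, -2.15, -1.11 and -3.44, all well above it. The groups overlapped, and the siRNA sample was the higher one in every pair. The mean difference was 1.41 here, 0.55 after normexp correction and 0.46 in the authors' deposited series values.

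**Figure D4:**
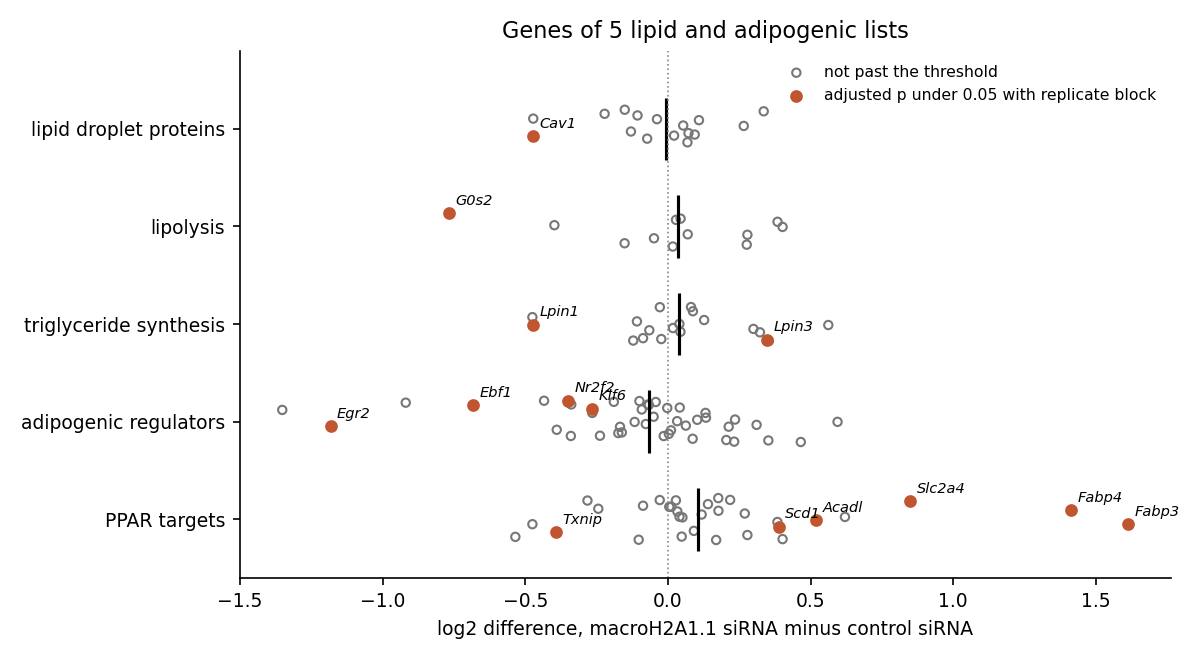
Each point is 1 measured gene of 5 lists (rows), placed at its log2 difference, macroH2A1.1 siRNA minus control siRNA (horizontal axis). Filled points have a limma adjusted p under 0.05 with the replicate block and are named, Fabp4 having been above background on only 2 of 4 control arrays, and black bars are list medians, between -0.07 and 0.10. In the setting shown, the filled points of the PPAR target list lie mostly to the right and those of the regulator list all to the left. Some other settings also called regulators higher. The regulator list mixes activators and inhibitors of fat cell formation, so the side of its points gives no direction for that process.

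Marker lists of fat cells, myotubes, fibroblasts, macrophages and endothelial cells were read in these samples of 1 cell line. A signal from such a marker therefore does not show that cells of that type were present, and no list of myoblast markers was used. Of 12 fat cell markers, 8, Plin1 and Adipoq among them, were not well above background on any array, Lep and Cidea were so on 1 array each, and only Fabp4 and Aqp7 entered the fit. All 12 myotube markers were measured, and with the replicate block 9 rose and 0 fell (0 passed without pairing, 5 at an unadjusted p under 0.05), against 4.07% of all genes called higher. Leaving out pair 1, 2, 3 or 4 left 0, 1, 0 and 3 of these calls, with 0, 110, 0 and 543 of all genes called. Median centring left 6, with 794 of all genes called, and no filter on dim probes left 0, with 0 of all genes called. The level of the myotube markers as a list is the mean over its genes after centring each gene on its mean of all arrays. It was -0.76 to 0.09 in control and -0.10 to 0.70 in siRNA samples, and within pairs 1 to 4 it was higher with the siRNA by 0.61, 0.66, 0.66 and 0.56. Of 9 measured fibroblast markers 0 rose and 3 fell (Col1a2, Postn and Dpt), against 3.87% of all genes called lower, and 0, 2, 0 and 2 fell without pair 1, 2, 3 or 4. Their mean levels, taken in the same way, were -0.06 to 0.56 in control and -0.45 to 0.39 in siRNA samples. The differences were -0.36, -0.61, -0.17 and -0.30 within pairs 1 to 4. No macrophage or endothelial marker of 5 and 3 measured was called in either fit, with 1 and 0 at an unadjusted p under 0.05 without pairing. Of the macrophage markers, Csf1r, Cd68, Cd14 and Itgam were well above background on all 8 arrays and Adgre1 on 6. Cd163, Lyz2 and Ptprc were so on no array. The part of the shift in myotube and fibroblast markers in the differences of Plin4, Plin2, Pparg and the PPAR targets was not tested, and in such bulk RNA fewer cells of a type and less RNA per cell cannot be told apart.

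The genes whose signal followed Plin4 most closely over the 8 arrays were, among 13178 genes well above background on every array, Eny2 (Pearson's r 0.985), Uqcrc1 (0.976), Mrps7 (0.975), Med9 (0.972) and Fmo1 (0.971). These coefficients are a description: all 5 genes, like Plin4, had groups that did not overlap, so r mostly holds the difference between the groups. Fmo1 was 1.03 higher with the siRNA, Uqcrc1 0.33, Mrps7 0.31, Eny2 0.24 and Med9 0.19. With deviations from each group's mean, the 5 closest were Eif2ak3 (0.950), Phf7 (0.937), Haus1 (0.928), Scrn1 (0.927) and Dnajc15 (0.926), a different set. Among the members, Plin2 followed Plin4 over the arrays with r of 0.89 and Pparg with 0.68, and within groups with 0.46 and 0.44. Within groups Cebpd (-0.70) and Pnpla2 (-0.46) ran opposite to Plin4, and the other measured members lay between -0.10 and 0.38.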

How the data were processed

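RNA of 4 control siRNA and 4 macroH2A1.1 siRNA samples (500 ng each, per the labels' protocols) was labelled with Cy3 and hybridised to 1-colour Agilent arrays on 1 slide, read in 1 scan. Per the file headers, Agilent Feature Extraction 10.7.3.1 gave the deposited intensity of each spot, and the build is mm9. The processed intensity is background-subtracted, per the file headers. The authors' deposited series values are on a log2 scale, found from their correlation with each array's own signal (r between 0.9977 and 0.9996), their background handling is not given in the sources used here, and they served as an alternative only.

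Control spots were left out, outlier-flagged spots (143 to 236 per array) were set missing, spots of a probe were averaged, and the array's 75th percentile was subtracted from each log2 intensity. Probes were named by accession (27509), current symbol (3549) or older symbol (404) in the RefSeq gene table (GRCm38.p6, for names and gene order only), and 1808 kept the name in the file. A probe was kept where every array of one group or the other called it well above background (24988 probes), and the kept probe of highest mean stood for its gene. The comparison used lmFit and eBayes of limma 3.58.1 (R 4.3.3) without covariates, and again with the replicate number as a block. That number pairs the samples by a rule on the data: deviations from the group means correlated at 0.61, 0.55, 0.66 and 0.41 within the 4 numbers, over 13772 genes, and at most at -0.03 between different numbers. Deviations from a group mean sum to 0, so positive values within numbers push those between numbers down. The values between numbers are therefore no separate evidence for the pairing. Arrays of the same number were also neighbours on the slide, and effects of culture and of position cannot be told apart. The fits were tested on simulated data.

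Members, lists and tests were chosen with earlier results of these data known. From each list the text names every gene past the threshold, or the 2 with the largest difference where fewer than 2 passed, and beside Plin4 the 5 genes of highest Pearson's r by each measure. Alternatives were the authors' values, centring on the median, quantile normalization, normexp correction (offset 50), no filter, a filter on all 8 arrays, the mean of a gene's probes, array row and column blocks and leaving out arrays or pairs. No series column outside these samples was used. Python 3.11.15 with matplotlib 3.10.9 drew the plots.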

Additional observations from a re-analysis of the deposited data

How the results depend on the processing

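Without pairing, none of the 7 tested members was called under any alternative, while the count over all genes, 3, was 1 with median centring, 10 with the array row as a block, 7 with the array column as a random block, 0 in array row 1 alone and 0 in array row 2 alone (both chosen after seeing the data), and 0 to 11 when 1 array was left out. With the replicate block it was 1098, and 2 member genes and 1 member probe were called. With that block, 1893 genes were called after normexp, 1721 in the authors' series values, 0 with no filter on dim probes and 0 to 543 without a pair. The 2 called members became 1 with median centring (Plin2, limma adjusted p = 0.0655), 0 with no filter and 0 to 0 without a pair. With no filter more dim genes are tested, and the cause of the other changes was not tested. Plin4 differed by 1.03 (the authors' values) to 1.44 (array row 1 alone, chosen after seeing the data) over 20 alternatives. Small differences turned sign: Plin3 was -0.0075 in the authors' values with and without the block, -0.0142 in array row 1 alone and -0.0129 to 0.0829 without a pair, and Cebpd was -0.0249 in row 1 alone, -0.139 to 0.293 without an array and -0.0418 to 0.145 without a pair. Cebpb was -0.0736 to 0.207 without an array. All arrays share 1 slide and 1 scan, so neither could be set as a block. Plin1 and Plin5 are limited by their signal, which was not above background on any array.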
